A study of Mus musculus with 12 samples.

Results

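The genes described here are 10 members of the NFκB system in the mouse heart, 4 genes for the DNA-binding factors (Rela, Relb, Nfkb1 and Nfkb2) and 6 for the proteins that hold those factors back, tune them or switch off the signal that frees them (Nfkbia, Nfkbib, Nfkbie, Nfkbiz, Bcl3 and Tnfaip3). They were chosen by name, with earlier results of these data known, and each had 1 row among the 52858 genes of the table. All 10 passed the filter on low values that left 15258 genes for testing.

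NFκB factors are dimers of REL family proteins. In a resting cell the inhibitory IκB proteins keep these dimers in the cytoplasm, and cytokine, Toll-like or stress receptors free them by having IκB phosphorylated and degraded. Several genes of the system are themselves classical NFκB targets, so the freed factor refills its own inhibitors. Dimer release is an event at the protein level, and only transcript levels were measured here.

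RNA was sequenced from mouse heart tissue, 3 libraries from independent samples in each of 4 groups. The hearts came from male mice of 3 to 5 months, either C57BL/6J or Slit2-Tg, and were perfused on a Langendorff apparatus outside the body with a blood-free buffer. Slit2-Tg mice were heterozygous for a transgene that carries full-length human Slit2 cDNA behind the CMV promoter, a viral promoter that is not restricted to one cell type. The line was made by injection into oocytes of a C57 × CBA cross, and the labels give C57BL/6J as its strain.

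The hearts of the C57-IR and Slit2-IR groups underwent ischemia-reperfusion (IR), with 20 min of equilibration, 20 min without flow and 40 min of reperfusion. The hearts of the C57-non-IR and Slit2-non-IR groups were perfused without interruption for 80 min. Levels are given in FPKM, a count of fragments scaled to gene length and library size, so genes can be compared with each other per length. The deposited values took median-of-ratios size factors, in place of plain depth, as the library size. Differences were tested on log2(FPKM + 1), which understates the change of genes with low FPKM, and a gene was called at an adjusted p under 0.05 by limma with Benjamini-Hochberg adjustment over all 15258 genes.

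The libraries held 16601154 to 24841291 reads on genes, of which 19.7% to 26.0% were mitochondrial. The fewest reads behind any value of a member were 32, for Nfkbie, and Nfkb1 and Rela had at least 615 reads in every library. Cardiomyocyte, endothelial, fibroblast and macrophage markers were all present, and 0 of their 25 genes were called with IR in either genotype or averaged. Over all 15258 tested genes 67 were called in C57BL/6J hearts, 77 in Slit2-Tg hearts and 531 averaged. At an unadjusted p under 0.05, 2 of the 5 fibroblast markers were higher averaged over genotypes, where 7.92% of all tested genes were. In Slit2-Tg hearts alone 1 of the 5 was, where 6.15% were. All 6 neutrophil markers, S100a8 and S100a9 among them, and all 6 lymphocyte markers stayed under 1 FPKM in every library. The summed level of the 5 atrial markers (Myl7, Sln, Nppa, Myl4 and Bmp10) was 19.9 to 86.9 FPKM in C57-non-IR and 85.3 to 227 in C57-IR, and 39.9 to 106 in Slit2-non-IR and 67.1 to 1650 in Slit2-IR. The summed blood markers, hemoglobin genes among them, were 8.35 to 16.3 FPKM in C57-non-IR and 1.47 to 6.79 in C57-IR, and 4.53 to 49.0 in Slit2-non-IR and 1.86 to 12.9 in Slit2-IR. Of the 4 tested blood markers, 2 were lower with IR averaged over genotypes at an unadjusted p under 0.05, and 0 were called. Their median difference was -0.85 on the log2(FPKM + 1) scale. The summed adipose markers were 0 to 0.847 FPKM in C57-non-IR and 0.105 to 17.2 in C57-IR, and 1.41 to 7.97 in Slit2-non-IR and 0.772 to 10.02 in Slit2-IR. Of the 5 adipose markers, 4 were higher in C57-IR than in C57-non-IR at an unadjusted p under 0.05, where 4.54% of all tested genes were. None of the 5 was called. The summed lung markers were 0.279 to 9.74 FPKM in C57-non-IR and 0.246 to 11.2 in C57-IR, and 0.140 to 12.4 in Slit2-non-IR and 0.121 to 0.257 in Slit2-IR. Of the 3 tested lung markers, 2 stood lower with the transgene after IR at an unadjusted p under 0.05. There 3.16% of all tested genes differed in either direction, and 0 of the 3 were called. The part of these markers in the differences of the members was not tested. The mouse Slit2 gene lay between 0.0847 and 0.813 FPKM in all libraries with overlapping genotypes. Reads of the human cDNA were not analysed here, so that row does not check the genotype labels.

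The sequence in front of the starts of the members is shown first, as a description. RefSeq promoter windows of the build GRCm38.p6, each with 250 bases before and 50 after a gene start, were matched for 7 of the 10 members. These were Nfkb2, Rela, Nfkbia, Nfkbib, Nfkbie, Tnfaip3 and Bcl3. The windows were searched on both strands for the kappa B motif, the 10-letter sequence that REL dimers bind. The motif was found in 5 of these 7 genes, against 5.14% of the 27025 genes with a window. The last 130 bases before the first listed start are printed below for Nfkb2, Nfkbia, Nfkbie and Tnfaip3, which hold it, and for Rela, which does not. For Bcl3 the 30 bases around a match just after the start are shown. Each is written 5′ to 3′ on the strand of the gene, and capitals mark the letters of a match.
Nfkb2, chr19:46304607-46304736, plus strand: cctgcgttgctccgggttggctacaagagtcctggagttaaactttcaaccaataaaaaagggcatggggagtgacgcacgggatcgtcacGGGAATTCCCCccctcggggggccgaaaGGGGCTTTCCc
Nfkbia, chr12:55492648-55492777, minus strand: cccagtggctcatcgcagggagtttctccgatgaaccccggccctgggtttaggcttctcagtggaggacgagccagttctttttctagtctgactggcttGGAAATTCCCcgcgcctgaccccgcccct
Nfkbie, chr17:45555570-45555699, plus strand: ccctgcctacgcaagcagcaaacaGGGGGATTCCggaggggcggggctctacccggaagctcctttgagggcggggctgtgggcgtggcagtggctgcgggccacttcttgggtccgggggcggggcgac
Tnfaip3, chr10:19015411-19015540, minus strand: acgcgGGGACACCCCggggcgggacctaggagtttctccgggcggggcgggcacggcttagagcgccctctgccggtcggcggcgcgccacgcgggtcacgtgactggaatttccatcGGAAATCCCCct
Bcl3, chr7:19822734-19822763, minus strand: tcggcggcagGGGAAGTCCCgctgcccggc
Rela, chr19:5637411-5637540, plus strand: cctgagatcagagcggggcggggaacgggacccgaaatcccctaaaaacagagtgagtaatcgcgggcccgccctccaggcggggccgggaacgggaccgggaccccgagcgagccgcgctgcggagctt

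The first Nfkb2 run of capitals holds a pair of overlapping matches, 39 and 38 bases before the start, and a further match begins 11 bases before it. The Nfkbia match begins 29 bases before the start and the Nfkbie match 106 bases before it. Tnfaip3 has matches 125 and 12 bases before its first start and none at its second listed start. The Bcl3 match runs from base 3 to base 12 after the start. The windows of Rela and Nfkbib held no match, which says only that these letters were not in these 300 bases. All these starts are those of RefSeq, and the gene coordinates given below place some starts elsewhere. By those coordinates the printed Tnfaip3 stretch and the Nfkbib window lie inside their genes, and the printed Rela stretch runs past the gene start. A match is a description of letters and no proof of binding.

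IR raised most of the system. Averaged over both genotypes, 7 of the 10 members rose after IR and none fell, where 2.33% of all tested genes rose. The risers were Tnfaip3, Bcl3, Nfkbiz, Nfkbie, Relb, Rela and Nfkb2. At an unadjusted p under 0.05, 9 members were higher, where 7.92% of all tested genes were. Every IR library lay above every non-IR library of its own genotype for these 7 genes, a separation that 2.93% of all tested genes showed. The median difference over the 10 members was 0.85 on the log2(FPKM + 1) scale, and the median over all tested genes was 0.00352. In an exact two-sided permutation test that relabelled IR within each genotype, each of the 7 gave p = 0.005, the smallest that the 400 relabelings allow. In bulk tissue a change in the number of expressing cells and a change in RNA per cell cannot be told apart. The 4 tested atrial markers had positive median differences with IR, 1.42 in C57BL/6J and 2.30 in Slit2-Tg hearts, with 0 called, and their part in these differences was not tested. The same 7 members were called without Slit2-IR replicate 1, the library at 1650 FPKM of atrial markers, but this fit does not test that part. Summed atrial markers also reached 227 FPKM in C57-IR, against at most 86.9 in C57-non-IR.

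**Figure D1:**
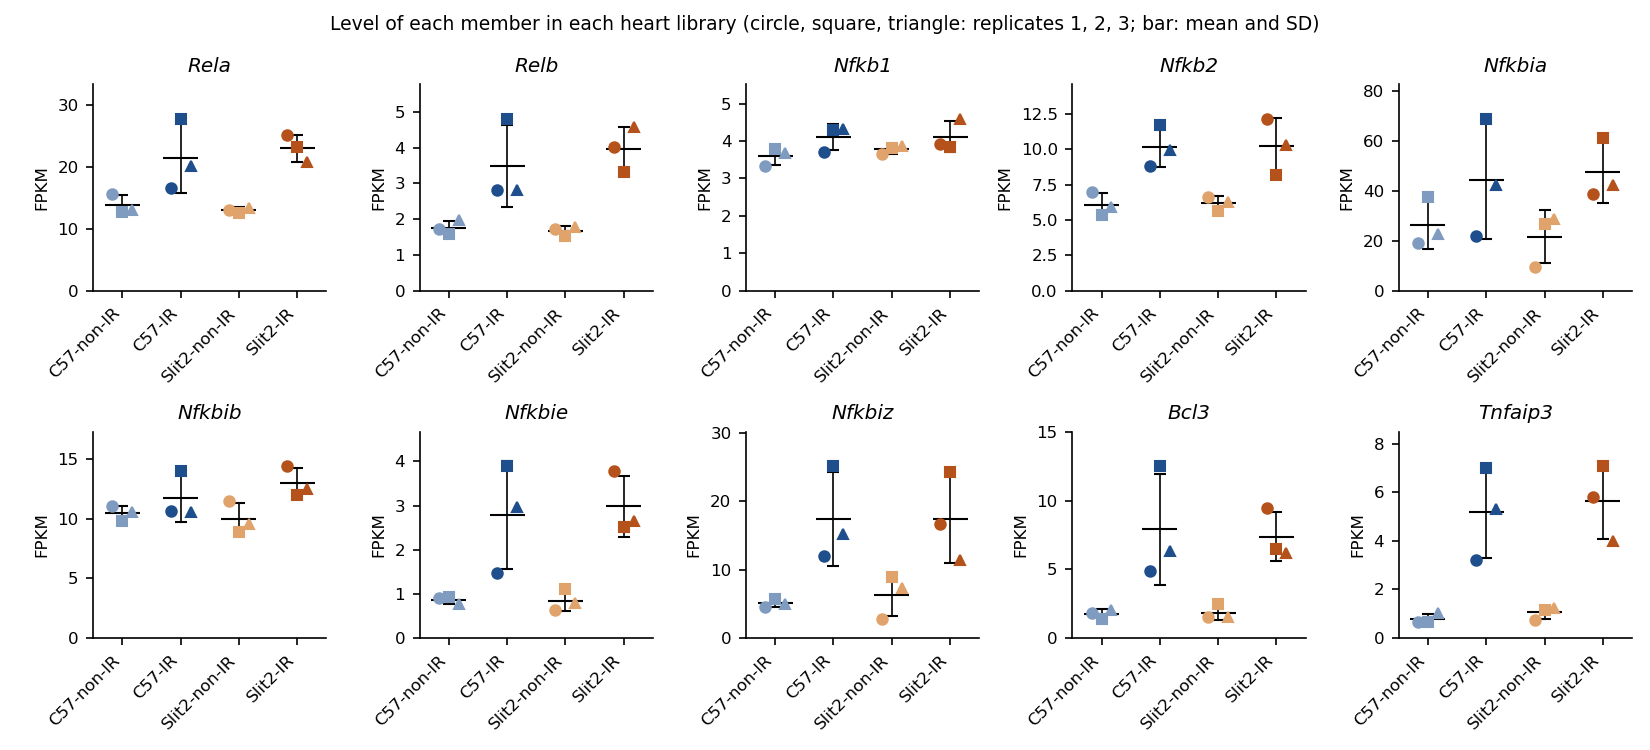
FPKM of each member (vertical axes, each from 0) in the 4 groups, with 1 point per library, circles, squares and triangles for replicates 1, 2 and 3, and bars for the mean and SD of 3 libraries. Tnfaip3, Bcl3, Nfkbie, Nfkbiz, Relb, Rela and Nfkb2 sat higher in every IR library than in any non-IR library of the same genotype, while the groups of Nfkb1 overlapped.

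Tnfaip3, which encodes the ubiquitin-editing enzyme A20 that shuts down signaling to the IκB kinase, showed the largest difference of the 10 on the log2(FPKM + 1) scale. Its gene lies at chr10:19000910-19015657 on the minus strand in the coordinates of the files. Its level was 0.64, 0.67 and 1.02 FPKM in C57-non-IR and 3.22, 6.99 and 5.32 in C57-IR. In Slit2-Tg hearts it was 0.74, 1.17 and 1.25 FPKM without IR and 5.82, 7.08 and 3.99 with IR. The lowest IR library was thus above the highest non-IR library in either genotype. The mean level was 6.66-fold higher with IR in C57BL/6J hearts and 5.35-fold higher in Slit2-Tg hearts. Averaged over genotypes the difference was 1.71 ± 0.16 (SE, log2 scale, adjusted p = 0.000575, limma).

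Bcl3 and Nfkbiz are the genes of nuclear IκB proteins. Bcl3 encodes an IκB relative that works in the nucleus on p50 and p52 dimers, and its gene lies at chr7:19808462-19822770. It was measured at 1.83, 1.39 and 2.08 FPKM in C57-non-IR and 4.88, 12.53 and 6.35 in C57-IR. The Slit2-Tg values were 1.54, 2.47 and 1.56 without IR and 9.45, 6.49 and 6.22 with IR. No IR library overlapped the non-IR libraries, and the averaged difference was 1.58 ± 0.19 (SE, adjusted p = 0.00200, limma). Reads cannot be assigned with certainty where genes overlap, since the strand setting of the counting is not given, and Gm16174, which overlaps Bcl3 on the other strand, went from 0.281 to 1.01 FPKM in C57BL/6J means and from 0.359 to 1.13 in Slit2-Tg means (averaged difference 0.61, adjusted p = 0.0885, limma).

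Nfkbiz encodes IκBζ, an inducible nuclear cofactor needed for a second wave of inflammatory genes, and lies at chr16:55811375-55838899. Its level was 4.60, 5.73 and 5.01 FPKM in C57-non-IR and 11.94, 25.17 and 15.26 in C57-IR. In Slit2-Tg hearts it was 2.79, 8.93 and 7.39 FPKM without IR and 16.65, 24.34 and 11.48 with IR. The groups were apart in both genotypes, but the libraries of one group were widely spread, and replicate 2 was the highest in every group. The averaged difference was 1.46 ± 0.26 (SE, adjusted p = 0.0114, limma).

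The classical IκB proteins, which hold dimers in the cytoplasm, did not behave as one. Nfkbie, the gene of IκBε at chr17:45555716-45563169, had the lowest mean level of all 10 members. It stood at 0.90, 0.92 and 0.76 FPKM in C57-non-IR and 1.47, 3.89 and 2.98 in C57-IR. In Slit2-Tg hearts it stood at 0.64, 1.11 and 0.80 FPKM without IR and 3.78, 2.52 and 2.65 with IR. It rose by an averaged 1.03 ± 0.15 (SE, adjusted p = 0.00460, limma), and its IR libraries were all above its non-IR libraries.

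Nfkbia, at chr12:55489410-55492647, encodes IκBα, the inhibitor whose resynthesis closes the fastest feedback loop of the system, and it was the most abundant member in every group. Its level was 19.0, 37.6 and 22.9 FPKM in C57-non-IR and 22.0, 68.8 and 42.2 in C57-IR. In Slit2-Tg hearts it was 9.37, 26.6 and 28.9 FPKM without IR and 38.8, 61.3 and 42.2 with IR. The C57 groups overlapped and the Slit2 groups did not. The averaged difference of 0.93 ± 0.33 (SE, 95% interval 0.21 to 1.64) did not pass the adjusted threshold (p = 0.0158, adjusted p = 0.171, limma), and the exact permutation test gave p = 0.035. In the fit blocked by replicate number it did pass (adjusted p = 0.0158, limma), although no label states that the numbers pair the libraries. The SD of Nfkbia between libraries of one group was 0.657 on the log2 scale, higher than that of 98.7% of tested genes, whose median was 0.147. Replicate 1 was the lowest library in all 4 groups.

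Nfkbib, at chr7:28758251-28767512, encodes IκBβ, an inhibitor that is resynthesised more slowly. It lay between 9.80 and 11.04 FPKM in C57-non-IR, 10.6 and 14.0 in C57-IR, 8.93 and 11.5 in Slit2-non-IR, and 11.99 and 14.4 in Slit2-IR. The averaged difference was 0.24 ± 0.09 (SE, 95% interval 0.05 to 0.44, adjusted p = 0.196, limma). The C57 groups overlapped and the Slit2 groups did not, and the exact permutation test, which is not adjusted, gave p = 0.035. Sirt2, a deacetylase gene that overlaps Nfkbib on the other strand, was at 15.8 to 19.3 FPKM and so could add reads to its count.

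Among the factors, Rela encodes p65, the main activating subunit, at chr19:5637483-5648130. It stood at 15.7, 12.7 and 13.1 FPKM in C57-non-IR and 16.5, 27.7 and 20.1 in C57-IR. In Slit2-Tg hearts it stood at 13.1, 12.6 and 13.4 FPKM without IR and 25.1, 23.1 and 20.8 with IR. C57-IR replicate 1 was barely above the highest C57-non-IR library, and the remaining IR libraries were well above it. The averaged difference was 0.67 ± 0.11 (SE, adjusted p = 0.00761, limma), with mean levels 1.55-fold and 1.77-fold higher after IR in C57BL/6J and Slit2-Tg hearts.

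Relb, at chr7:19606217-19629438, encodes the partner of p52 in the noncanonical pathway. It was measured at 1.74, 1.60 and 1.96 FPKM in C57-non-IR and 2.82, 4.80 and 2.82 in C57-IR. The Slit2-Tg values were 1.72, 1.52 and 1.77 FPKM without IR and 4.01, 3.31 and 4.56 with IR. All IR libraries were above all non-IR libraries, and Relb rose by an averaged 0.78 ± 0.11 (SE, adjusted p = 0.00428, limma). Relb and Bcl3 lie 179024 bases apart on chromosome 7. Of the 13 genes listed between them 5 were tested and 0 were called, with differences of 0.01 to 0.12. Over all 15258 tested genes 531 were called, so a count of 0 among 5 genes says little.

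Nfkb2 and Nfkb1 encode the precursors p100 and p105, which are processed to the DNA-binding subunits p52 and p50 and can themselves hold REL proteins back. Nfkb2, at chr19:46304737-46312090, was at 6.94, 5.38 and 5.92 FPKM in C57-non-IR and 8.85, 11.7 and 9.96 in C57-IR. In Slit2-Tg hearts it was at 6.65, 5.65 and 6.28 FPKM without IR and 12.1, 8.21 and 10.3 with IR. The groups did not overlap in either genotype, and the averaged difference was 0.64 ± 0.10 (SE, adjusted p = 0.00636, limma). Psd, which overlaps Nfkb2 on the other strand, lay between 0.32 and 1.02 FPKM over all libraries. It went from 0.459 to 0.666 FPKM in C57BL/6J means and from 0.491 to 0.867 in Slit2-Tg means (averaged difference 0.26, adjusted p = 0.0543, limma).

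Nfkb1, at chr3:135584655-135691547, differed least. Its level was 3.33, 3.80 and 3.68 FPKM in C57-non-IR and 3.71, 4.29 and 4.31 in C57-IR, and 3.64, 3.82 and 3.87 in Slit2-non-IR and 3.92, 3.84 and 4.59 in Slit2-IR. Its groups overlapped, and the averaged difference was 0.12 ± 0.06 (SE, 95% interval -0.02 to 0.26, adjusted p = 0.409, limma). The exact permutation test, which is not adjusted, gave p = 0.04. Its libraries of one group were close together, with an SD of 0.0861 on the log2 scale against a median of 0.147 over all tested genes, so the upper end of the interval leaves room for a small difference and lies under the lower end of the intervals of Tnfaip3, Bcl3, Nfkbiz, Nfkbie, Relb, Rela and Nfkb2.

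**Figure D2:**
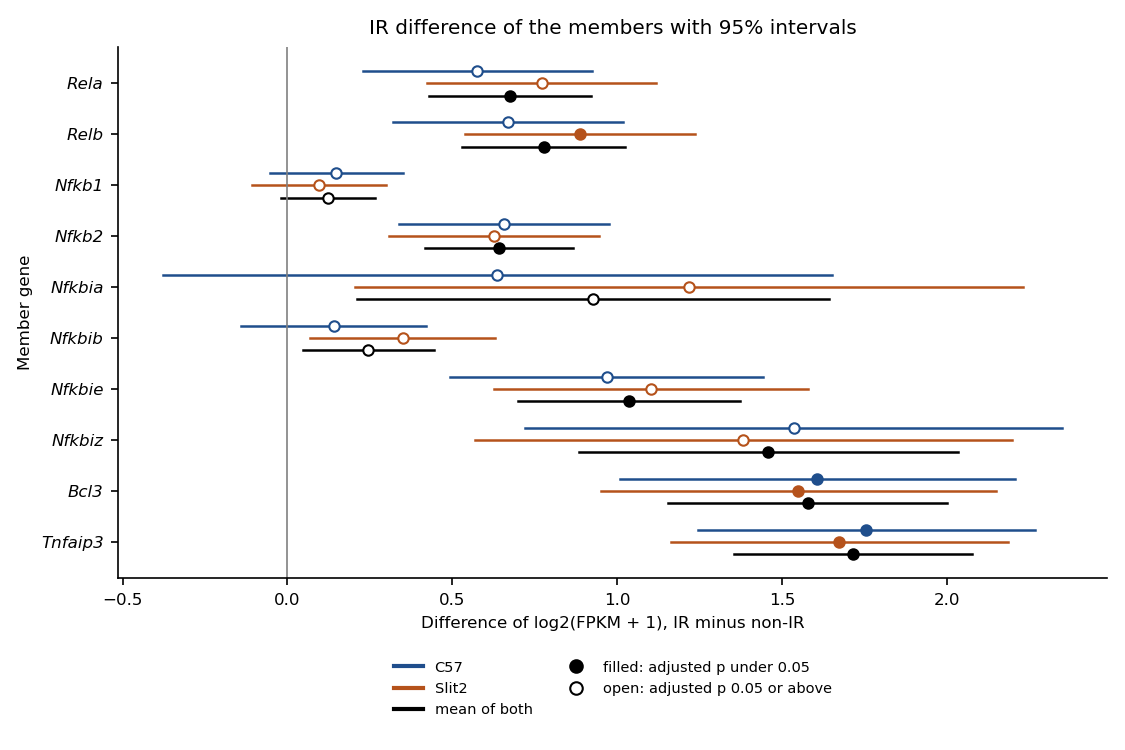
Difference of log2(FPKM + 1), IR minus non-IR (horizontal axis), of each member in C57BL/6J hearts, in Slit2-Tg hearts and averaged over both, with 95% intervals from limma and filled points for an adjusted p under 0.05. The 7 filled averaged points run from 0.64 for Nfkb2 to 1.71 for Tnfaip3, and the widest intervals belong to Nfkbia and Nfkbiz.

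Per length, the order of the mean levels over all libraries was Nfkbia with 35.0 FPKM, Rela with 17.8, Nfkbiz with 11.6, Nfkbib with 11.3, Nfkb2 with 8.17, Bcl3 with 4.73, Nfkb1 with 3.90, Tnfaip3 with 3.16, Relb with 2.72 and Nfkbie with 1.87. Neighbours in this order overlapped in their ranges over the libraries. The order changed with IR. Tnfaip3 was the tenth of the 10 in C57-non-IR and the seventh in C57-IR, and Bcl3 went from the eighth to the sixth place, while Nfkb1 went from the sixth to the eighth. In Slit2-Tg hearts Tnfaip3 went from the ninth place to the seventh and Nfkb1 again from the sixth to the eighth.

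Set side by side as levels, the 5 REL family genes (the 4 members and Rel, which encodes c-Rel) summed to 25.2 to 29.0 FPKM in C57-non-IR and 34.7 to 52.6 in C57-IR. In Slit2-Tg hearts they summed to 24.996 to 27.0 FPKM without IR and 41.8 to 48.2 with IR. Rela made up 47.5% to 54.9% of the sum in every library. The share of Nfkb1 was 11.5% to 15.1% in C57-non-IR and 8.16% to 10.8% in C57-IR, and 13.5% to 15.3% in Slit2-non-IR and 8.14% to 10.97% in Slit2-IR. The share of Nfkb1 was thus lower in every IR library than in any non-IR library of its genotype, while that of Rela overlapped between the groups. The summed FPKM of the classical inhibitors Nfkbia, Nfkbib and Nfkbie was 0.797 to 1.92 times the REL sum without IR and 0.980 to 1.80 times with IR, with full overlap. These shares are transcripts per length and not amounts of protein.

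**Figure D3:**
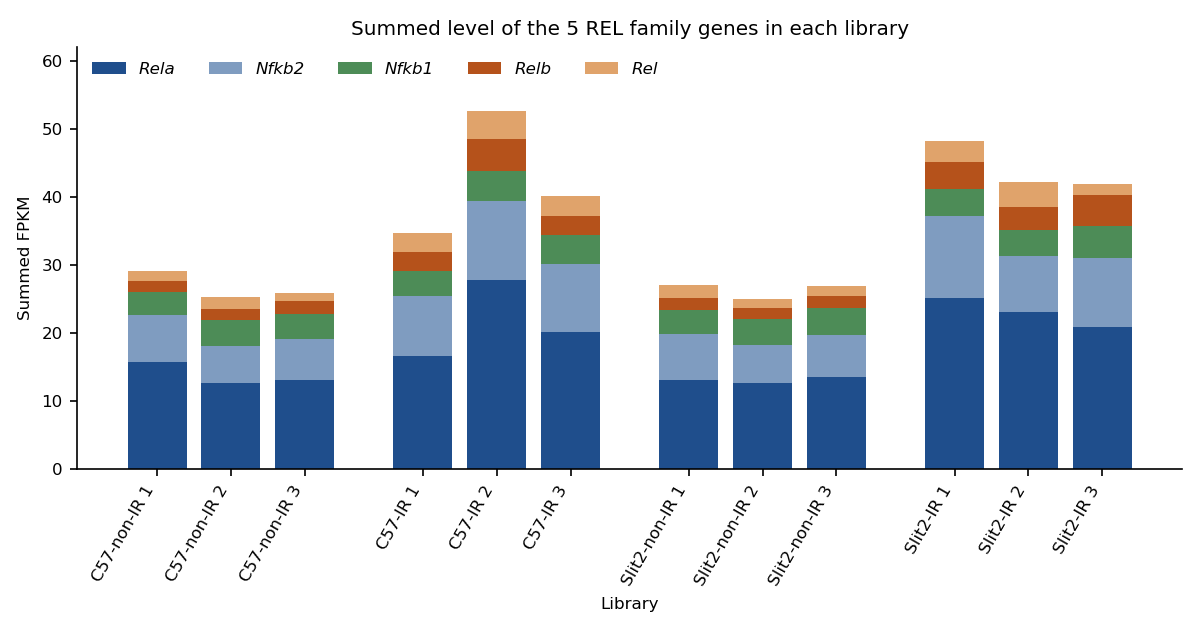
Summed FPKM of Rela, Nfkb2, Nfkb1, Relb and Rel (vertical axis, stacked) in each of the 12 libraries. The IR libraries stand at 34.7 to 52.6 FPKM and the non-IR libraries at 24.996 to 29.0, with the Nfkb1 layer of nearly equal height throughout.

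The IR response of each genotype was then taken on its own, with fewer libraries behind it. In C57BL/6J hearts 2 of the 10 members passed the adjusted threshold, against 0.387% of all tested genes that rose. These were Tnfaip3 (difference 1.76 ± 0.23 SE, adjusted p = 0.0144, limma) and Bcl3 (1.61 ± 0.27 SE, adjusted p = 0.0391, limma). At an unadjusted p under 0.05, 7 members were higher, where 4.54% of all tested genes were, and the same 7 had groups that did not overlap, where 6.74% of all genes did so upward. The missing 3 were Nfkbia, Nfkbib and Nfkb1, with differences of 0.64, 0.14 and 0.15. The exact permutation of 3 against 3 libraries cannot go below p = 0.1, which these 7 reached.

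The count of 2 moved with single libraries, as did the number of calls over all genes, which was 67. Without C57-IR replicate 1 it was 5 members among 254 called genes. Without any 1 of the C57-non-IR libraries or C57-IR replicates 2 or 3 it was 0 members among 3 to 5 called genes, and without any 1 of the Slit2-non-IR libraries 1 member among 19 to 38. C57-IR replicate 1 was the lowest of its group for 9 of the 10 members, and C57-IR replicate 2 was the highest for 9 of the 10. Direction did not depend on a library, since all 10 differences stayed above 0 whichever library was left out.

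In Slit2-Tg hearts 3 of the 10 members passed the adjusted threshold, against 0.426% of all tested genes that rose. These were Tnfaip3 (1.67 ± 0.23 SE, adjusted p = 0.0182, limma), Bcl3 (1.55 ± 0.27 SE, adjusted p = 0.0404, limma) and Relb (0.89 ± 0.16 SE, adjusted p = 0.0419, limma). At an unadjusted p under 0.05, 9 members were higher, where 6.15% of all tested genes were, and the same 9 had groups that did not overlap, where 8.64% of all genes did so upward. Nfkb1 was the exception, with a difference of 0.10.

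No label states that replicate numbers pair the libraries, and a block by number was tried as an alternative. In the fit blocked by these numbers 6 members were called, Nfkbia (adjusted p = 0.0499, limma), Nfkbie (0.0490) and Nfkbiz (0.0434) in addition to the 3, while the calls over all genes went from 77 to 194. The count of 3 became 5 without C57-IR replicates 1 or 2 (179 and 178 genes called in all), 1 without any 1 of the C57-non-IR libraries, C57-IR replicate 3 or Slit2-IR replicate 3 (22 to 93 genes), and 0 without any 1 of the Slit2-non-IR libraries or Slit2-IR replicates 1 or 2 (4 to 12 genes). The 10 differences stayed above 0 in each of these fits.

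Genotypes were compared after IR, without IR, over both and by the interaction, and no member passed a threshold in any of these. Between Slit2-IR and C57-IR hearts, 0 of the 10 members were called, where 0.0459% of all tested genes were, and 0 had an unadjusted p under 0.05, where 3.16% of all genes did. The differences ran from -0.02 for Bcl3 to 0.21 for Nfkbia, each with an adjusted p of 0.9996 (limma). The groups overlapped for every member, where 6.47% of all genes had groups apart in either direction. The 95% intervals were narrowest for Nfkb1, from -0.20 to 0.20, and widest for Nfkbia, from -0.80 to 1.22, so a doubling of Nfkbia on this scale lies inside its interval. For Rela, the interval was -0.22 to 0.47, for Tnfaip3 it was -0.39 to 0.63, and for Nfkbiz it was -0.81 to 0.82.

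In hearts without IR, 0 of the 10 differed by genotype at the adjusted threshold, where 0.0393% of all tested genes did, and 0 had an unadjusted p under 0.05, where 3.18% of all genes did. The groups again overlapped for every member, where 9.18% of all genes had groups apart. The differences ran from -0.37 for Nfkbia (95% interval -1.38 to 0.64) to 0.21 for Tnfaip3 (95% interval -0.31 to 0.72). The low value of Nfkbia in the Slit2-Tg group came with 1 library, Slit2-non-IR replicate 1 at 9.37 FPKM, and without it the difference was 0.12. Averaged over both conditions, 0 of the 10 differed by genotype at the adjusted threshold, where 0.131% of all tested genes did, and 0 had an unadjusted p under 0.05, where 4.11% did, with differences of -0.08 (Nfkbia) to 0.16 (Tnfaip3).

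The interaction, the IR difference of Slit2-Tg hearts minus that of C57BL/6J hearts, was called for 0 of the 10 members and for 0 of all tested genes, and 0 members had an unadjusted p under 0.05, where 1.85% of all genes did. It ran from -0.15 for Nfkbiz (95% interval -1.30 to 0.997) to 0.58 for Nfkbia (95% interval -0.85 to 2.01). For Rela it was 0.20 (95% interval -0.29 to 0.69), for Bcl3 -0.06 (-0.90 to 0.79) and for Tnfaip3 -0.08 (-0.80 to 0.64). The larger number of calls in Slit2-Tg hearts is therefore no shown difference between genotypes. A p above the threshold does not show that the genotypes respond alike, and these intervals state what sizes 3 libraries a group leave possible.

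**Figure D4:**
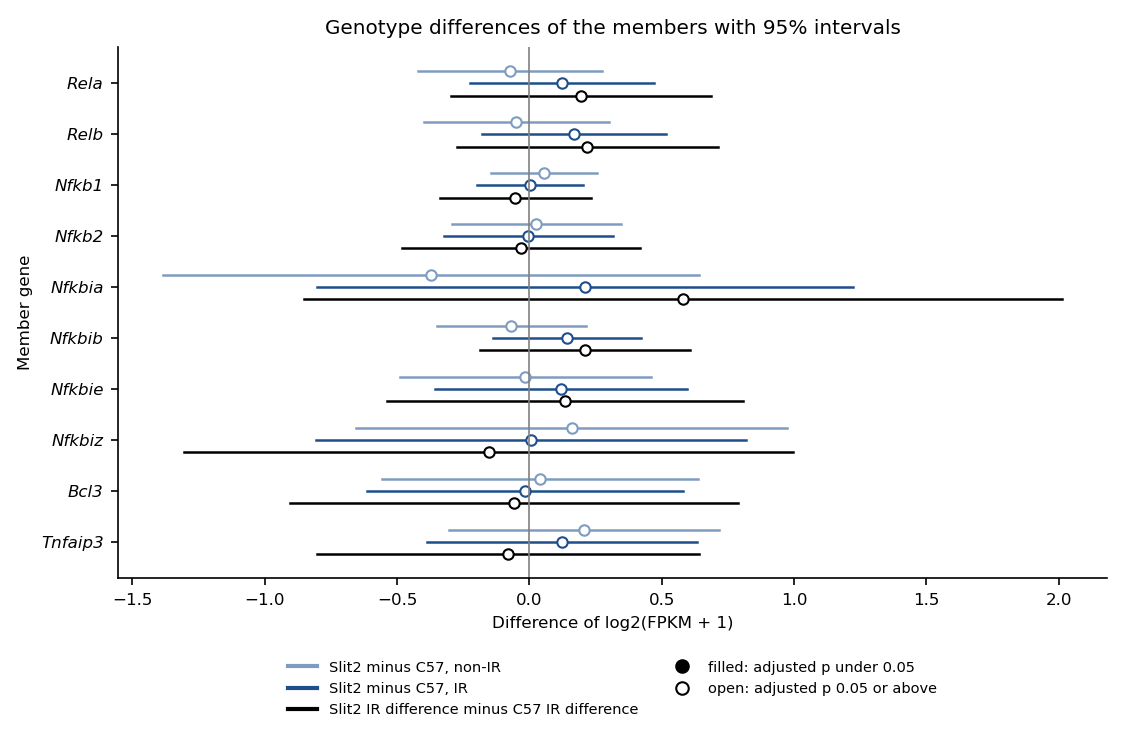
Genotype differences of the members on the log2(FPKM + 1) scale (horizontal axis) without IR and with IR, and the IR difference of Slit2-Tg hearts minus that of C57BL/6J hearts, each with its 95% interval from limma. Every interval includes 0 and all points are open, with Nfkbia widest.

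The rest of the pathway was followed in 4 lists. They were chosen with earlier results of these data known, so their shares beside those of all genes are a description only. Of 12 further REL, IκB and kinase genes, 2 rose with IR averaged over genotypes and 0 fell, where 2.33% of all tested genes rose. They were Nfkbid, which encodes the nuclear IκB protein IκBNS (1.46 ± 0.23 SE, adjusted p = 0.00570, limma), and Rel (0.66 ± 0.14 SE, adjusted p = 0.0246, limma). Nfkbid went from 0.970 to 4.67 FPKM in C57BL/6J means and from 0.983 to 4.46 in Slit2-Tg means. None of the kinases was called. Chuk and Ikbkb, the catalytic subunits of the IκB kinase, stood at 5.16 and 1.30 FPKM in C57-non-IR and 5.40 and 1.23 in C57-IR. Map3k14, the kinase of the noncanonical pathway, had a difference of 0.37 (adjusted p = 0.0518, limma). The median difference of this list was 0.02.

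Of 25 receptor and adaptor genes, 4 rose and 0 fell, again against 2.33% of all tested genes that rose, with a median difference of 0.10. Tlr2, a Toll-like receptor, rose by 1.29 ± 0.23 (SE, adjusted p = 0.0101, limma), from 1.44 to 5.63 FPKM in C57BL/6J means. The others were Birc3, a ubiquitin ligase of the TNF receptor complex (0.79, adjusted p = 0.0114, limma), Myd88, the adaptor of Toll-like and IL-1 receptors (0.63, adjusted p = 0.0298, limma), and Ripk1, a kinase of the TNF receptor complex (0.53, adjusted p = 0.0466, limma). Of 16 further negative regulators, 2 rose and 0 fell, against the same 2.33%, with a median of 0.08. They were Socs3, an inhibitor of cytokine receptor signaling (2.22 ± 0.34 SE, adjusted p = 0.00545, limma), and Zc3h12a, an RNase that degrades inflammatory mRNAs (1.15 ± 0.20 SE, adjusted p = 0.00904, limma). Cyld and Otulin, deubiquitinases of the same pathway, were at 2.43 and 15.2 FPKM in C57-non-IR and 2.46 and 16.7 in C57-IR.

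Of 32 textbook NFκB targets 29 were tested, since Ccl20, Csf3 and Saa3 were too low, and 18 of these rose with IR while 0 fell, against the same 2.33% of all tested genes, with a median difference of 1.37. Il6, a cytokine, showed the largest difference of the list (3.29 ± 0.31 SE, adjusted p = 0.000501, limma), from 0.12 to 0.42 FPKM in C57-non-IR to 4.51 to 23.5 in C57-IR. Sele, the endothelial adhesion molecule E-selectin, followed it among those with the smallest adjusted p (2.51 ± 0.28 SE, adjusted p = 0.00152, limma). The chemokine genes Ccl2, Ccl3, Ccl4, Cxcl1, Cxcl2 and Cxcl10 rose by 1.69 to 2.63. The adhesion genes Icam1 and Selp, the cytokines Tnf and Il1a, and Plau, Irf1, Gadd45b, Cd83, Tnfaip2 and Ptgs2 made up the rest. Sod2, Ier3 and Il1b were not called, with differences of 0.01, 0.91 and 0.91. In C57BL/6J hearts alone 5 of the 29 rose (Il6, Ccl3, Sele, Tnf and Plau), where 0.387% of all tested genes did, and in Slit2-Tg hearts alone 4 rose (Il6, Sele, Plau and Irf1), where 0.426% did.

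Between genotypes, 0 genes of the 4 lists were called with or without IR or in the interaction. Of all tested genes 0.0459% were called after IR, 0.0393% without IR and 0 in the interaction. After IR, Tab1 of the first list was higher at an unadjusted p under 0.05, and the textbook targets Lcn2 and Ccl5 were lower. There 3.16% of all genes differed. Without IR 0 list genes had such a p, where 3.18% of all genes did. Differences after IR were negative for 20 of the 29 textbook targets and positive for 9.

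**Figure D5:**
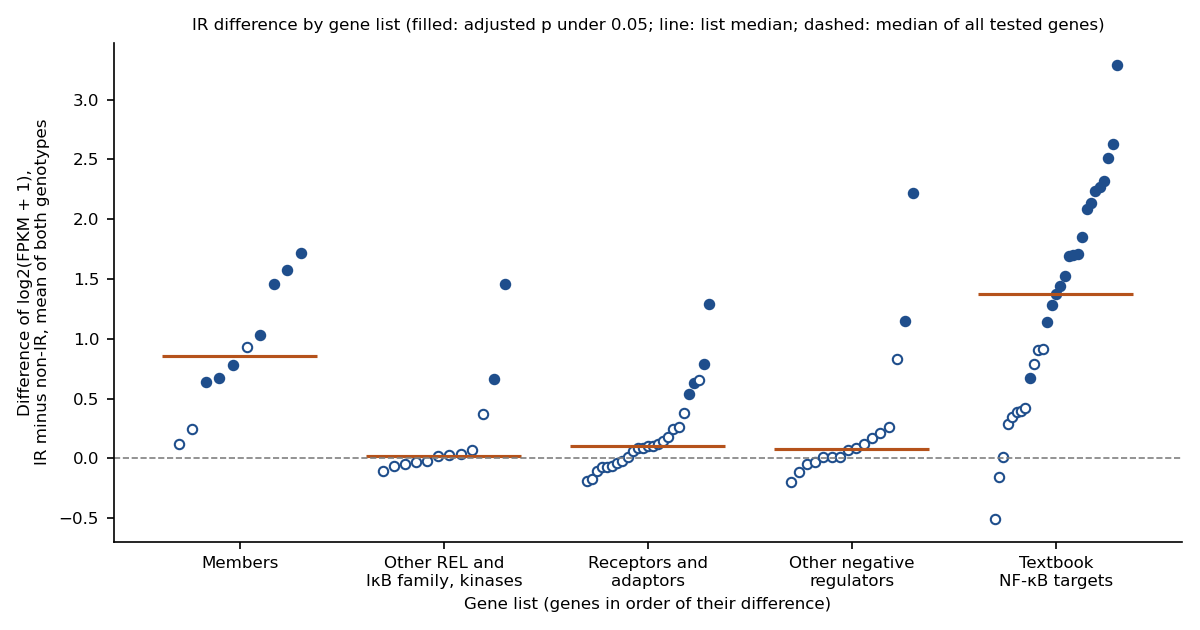
IR difference averaged over both genotypes (vertical axis, log2(FPKM + 1) scale) of each tested gene in the members and in the 4 lists, in order within each list, with filled points for an adjusted p under 0.05, a line at the median of the list and a dashed line at the median of all tested genes. The members (7 of 10 filled) and the textbook targets (18 of 29 filled) stand mostly above 0, and the other lists have medians of 0.02 to 0.10.

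Over the 21 textbook targets with a promoter window, 9 held the kappa B motif, and over the 14 of these that rose with IR, 5 did. The motif was held by 3 of the 10 further REL, IκB and kinase genes with a window (2 of the 2 that rose), by 3 of the 20 receptor and adaptor genes (1 of the 4 that rose) and by 4 of the 12 further negative regulators (0 of the 2 that rose). Among all tested genes with a window the share was 6.37%, and among the 247 genes with a window that rose with IR it was 13.4%. These shares are given as counts with no test.

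Genes whose levels ran most like those of single members were found by Pearson's r of log2(FPKM + 1) over the 12 libraries, which span the 4 groups and so share the IR difference. For Tnfaip3 the nearest were Pmaip1, Bhlhe40 and Gadd45g, with r of 0.99 each. Ugdh (0.99), Gfpt2 (0.99) and Sbno2 (0.98) were nearest to Bcl3, and Ptx3, Selp and Has1 (0.99 each) to Nfkbie. Nfkbiz ran closest to Cyr61, Btg1 and Socs3 (0.99, 0.99 and 0.98), and Nfkbia to Cebpd, Slc10a6 and 4930523C07Rik (0.97, 0.97 and 0.96). Impdh2, Bcar1 and Lmna (0.98, 0.97 and 0.97) were nearest to Rela, and Rcan1, Ctdp1 and Tnfrsf12a (0.96, 0.95 and 0.95) to Relb. The likeness was weaker for Nfkb1, with Mmp14 at 0.92, and for Nfkbib, with Ddx42 at 0.92. No member was among the 3 nearest genes of another member.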

How the data were processed

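RNA from mouse hearts (12 libraries) was prepared with TRIzol and the NEBNext Ultra kit and sequenced paired-end on Illumina HiSeq. The authors deposited FPKM values per gene, in 4 tables of 3 libraries. The submitters' processing notes name HISAT2 and the mm10 build. The counting tool, annotation release and strand setting are not given in the sources used here. FPKM multiplied by gene length came in whole steps for 100% of values (tolerance 0.01 reads), which gave the reads per gene, and the step sizes showed that the deposited values had been scaled by median-of-ratios size factors.

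Groups follow the sample labels, in which the second letter of each title was read as IR or non-IR. Genes that reached 10 reads, scaled to median depth, in 3 or more libraries and held 15 reads or more overall were fitted with limma 3.58.1 (R 4.3.3), variance trend, on log2(FPKM + 1), with all 12 libraries and no covariate. Benjamini-Hochberg adjustment covered all tested genes. Exact permutation tests, level sums and motif counts used Python 3.11.15 with SciPy 1.17.1. The fit was tested on simulated data.

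Deviations from the group mean were correlated over tested genes between libraries with the same replicate number. For Slit2-IR the correlations were 0.291, 0.295 and 0.142 with Slit2-non-IR, and 0.285, 0.154 and 0.362 with C57-IR. For C57-non-IR they were 0.295, 0.127 and 0.0837 with C57-IR, and 0.324, 0.038 and 0.105 with Slit2-non-IR. These ranges overlap, so they cannot decide which libraries, if any, the numbers pair. No label states a pairing, and the main fit used none. The replicate block was an alternative only.

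The labels call the 3 samples of a group independent. Every member was described, and from the lists the genes past the adjusted threshold were named with a few of the most abundant others. Members and lists were chosen with earlier results of these data known. Alternatives were a pseudocount of 0.1, TMM scaling, a filter on 1 read only, a filter on 10 reads per library throughout, limma-voom on recovered reads, the replicate block, the 6 libraries of a comparison alone, and leaving out each library. The genes most like Nfkb2 are not reported here.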

Additional observations from a re-analysis of the deposited data

How the results depend on the processing

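The 7 members called for the IR difference averaged over genotypes stayed called under each of 18 alternatives. The replicate block added Nfkbia (adjusted p = 0.0158, limma) and made the count 8. The counts within a genotype were less stable. The main counts of 2 members in C57BL/6J hearts and 3 in Slit2-Tg hearts became 0 and 0 with no filter beyond 1 read, 1 and 5 with limma-voom, 0 and 5 with the 6 libraries alone, and ran from 0 to 5 and from 0 to 5 over the fits without 1 library. With the replicate block the count was 6 in Slit2-Tg hearts and 3 in C57BL/6J hearts, though no label states that the numbers pair the libraries. The block changed no count of members between genotypes or for the interaction, which was 0 in every alternative. The main 2 further REL, IκB and kinase genes and 4 receptor and adaptor genes became 1 and 2 with no filter beyond 1 read and ran from 1 to 3 and from 2 to 5 without 1 library, alternatives added after seeing the data. The cause was not tested.

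No IR difference of a member changed sign. The only sign changes came from leaving out 1 library, in genotype differences that were not called. Between Slit2-IR and C57-IR the ranges were -0.27 to 0.33 for Bcl3, -0.063 to 0.041 for Nfkb1, -0.13 to 0.13 for Nfkb2, -0.21 to 0.59 for Nfkbia, -0.16 to 0.33 for Nfkbie, -0.25 to 0.29 for Nfkbiz, -0.041 to 0.32 for Rela and -0.13 to 0.33 for Tnfaip3. For the genotype difference without IR they were -0.11 to 0.12 for Bcl3, -0.045 to 0.11 for Nfkb2, -0.64 to 0.12 for Nfkbia, -0.16 to 0.0017 for Nfkbib, -0.11 to 0.068 for Nfkbie, -0.11 to 0.58 for Nfkbiz, -0.13 to 0.015 for Rela and -0.094 to 0.00064 for Relb. For the interaction they were -0.31 to 0.29 for Bcl3, -0.15 to 0.10 for Nfkb2, -0.15 to 0.35 for Nfkbie, -0.58 to 0.13 for Nfkbiz and -0.33 to 0.13 for Tnfaip3.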
